A study of Mus musculus with 19 samples.

Results

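The genes described here encode the laminins, perlecan and nidogens, the structural glycoproteins of basement membranes. They were taken by gene symbol as a fixed set of 10 (Lama2, Lama3, Lama4, Lama5, Lamb1, Lamb2, Lamc1, Hspg2, Nid1 and Nid2) out of 55414 genes in the count files. Each of the 10 was found once, and all 10 passed the filter on low counts that left 17617 genes for testing. Poly(A) RNA-seq had been done on abdominal aortas of male Apoe-/- mice on the C57Bl/6J background, which lack apolipoprotein E and were infused with angiotensin II (AngII) through subcutaneous osmotic pumps as young adults, a model of abdominal aortic aneurysm. The non-irradiated control group had 5 libraries (4, 5, 6, 8 and 9). The D-3 IR group, given total-body X-rays at 1 Gy 3 days before pump implantation, had 7 (10 to 16), and the D+1 IR group, given the same dose 1 day after implantation, also had 7 (1, 2, 3 and 17 to 20). The genotype and the AngII infusion were thus shared by all 3 groups, so no library shows the uninfused aorta, and while the study took mice for tissue analyses on an earlier day and for survival on a later one, the day of the RNA-seq aortas is not stated in its methods. Between 25839001 and 97083681 reads per library were counted in genes (median 39641963). The files of D+1 IR 1, 2 and 3 carry the series number 41 and all 16 others the number 61. What this number marks is not given in the sources used here, and within the D+1 IR group it separates libraries in a way that no other group can be compared with. Main results for the 10 genes are therefore also given without these 3 libraries. The fold changes of the other gene lists were computed only with all libraries.

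A laminin is a cross-shaped trimer of an α, a β and a γ chain, which are encoded by separate genes and combine into different isoforms. Trimers polymerize beneath the cell and bind integrins and dystroglycan on its surface, nidogens tie the laminin network to the collagen IV network, and perlecan, a heparan sulfate proteoglycan, binds both and holds growth factors. In an artery the endothelium rests on a basement membrane, and each medial smooth muscle cell is wrapped in its own. The α4 and α5 chains are the α chains of vascular basement membranes, α2 is the chain of muscle and peripheral nerve, α3 that of epithelia, and β2 is the β chain associated with mature smooth muscle. In bulk aortic RNA a lower value can come from fewer cells of a type or from less RNA per cell, and these cannot be told apart here.

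On the GRCm38 mouse genome Lama2 (chr10:26980036-27619758) and Lama4 (chr10:38965515-39110188) share chromosome 10. Lama5 is at chr2:180176373-180225859, Lamb2 at chr9:108479736-108490530, Lamb1 at chr12:31265234-31329644, Lamc1 at chr1:153218922-153332786, Hspg2 at chr4:137468769-137570630, Nid1 at chr13:13437551-13512269 and Nid2 at chr14:19751265-19811787. Reads were divided evenly between the strands (49.87 to 50.14% on the second strand), so a gene on the opposite strand cannot be told apart where exons overlap. Of the genes that overlap a member, Rtraf, which is opposite Nid2 and shares 1 exon stretch with it, had 68195 counts over all libraries, and the others had 383 or fewer. Reads that could not be assigned to 1 gene were set apart as ambiguous, so the shared stretch can take reads from Nid2. Nid2 values are uncertain for this reason.

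Promoter sequences are shown for the genes whose levels moved most closely together across the libraries (Lama5, Hspg2 and Lamb2) and for Lamb1, which ran against them. They were read 5′ to 3′ from the RefSeq promoter table of GRCm38.p6, which spans 250 bases before to 50 bases after each start and held 6 of the 10 genes. Only the bases ahead of the annotated starts are printed, and capitals mark GC boxes (GGGCGG on either strand). The Lama5 stretch is chr2:180225860-180226109, minus strand, 250 bases.
Lama5: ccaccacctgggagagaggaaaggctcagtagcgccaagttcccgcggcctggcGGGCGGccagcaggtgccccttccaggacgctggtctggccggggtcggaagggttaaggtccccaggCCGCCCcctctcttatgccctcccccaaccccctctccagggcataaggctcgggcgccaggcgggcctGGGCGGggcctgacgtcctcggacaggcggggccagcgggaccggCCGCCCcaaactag
The Hspg2 stretch is chr4:137468553-137468768, plus strand, 216 bases.
Hspg2: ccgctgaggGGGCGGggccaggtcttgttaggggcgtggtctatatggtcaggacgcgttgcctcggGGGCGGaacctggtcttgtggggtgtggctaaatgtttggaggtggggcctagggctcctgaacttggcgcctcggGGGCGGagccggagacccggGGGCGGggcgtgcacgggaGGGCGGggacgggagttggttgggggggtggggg
The Lamb2 stretch is chr9:108479612-108479735, plus strand, 124 bases.
Lamb2: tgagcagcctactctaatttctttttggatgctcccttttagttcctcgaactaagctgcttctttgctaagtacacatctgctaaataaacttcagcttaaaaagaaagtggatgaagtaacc
The Lamb1 stretch is chr12:31265043-31265233, plus strand, 191 bases.
Lamb1: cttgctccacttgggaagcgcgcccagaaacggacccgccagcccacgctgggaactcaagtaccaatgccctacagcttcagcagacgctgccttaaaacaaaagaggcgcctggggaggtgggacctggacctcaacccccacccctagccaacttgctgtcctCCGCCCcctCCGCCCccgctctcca
The genes that moved together did not share this feature. In the whole 300-base windows the GC box was found 4 times in Lama5 and 5 times in Hspg2, with a GC content of 72.7% and 70.3%, against a median of 52.7% over 32851 promoters. Lamb2 had no GC box and a GC content of 44.0%. Lamb1 had 2 GC boxes. A GC box was present in 35.7% of all promoters in the table. The TATA box (TATAAA) was in none of the 6 windows and in 13.6% of all. A CArG box, the motif bound by serum response factor in smooth muscle genes, was found in Lama2 alone of the 6 and in 1.63% of all promoters. In Lama2 it started 39 bases ahead of the RefSeq start (chr10:27616972-27616981, minus strand). This match lies inside the gene as annotated (chr10:26980036-27619758), downstream of its annotated start.
Lama2, with the CArG box in capitals: ccaaggacCCTTTAAAGGcccaggcc
The TEAD motif (GGAATG on either strand) was found in Nid1 alone, 165 bases ahead of the start (chr13:13437437-13437442, plus strand), and in 14.7% of all promoters.
Nid1, with the TEAD motif in capitals: ttggatccGGAATGctgggaac
These matches describe the letters of the windows only.

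To compare the genes with each other, CPM (counts scaled to library size with TMM factors) were divided by the exonic length in kilobases. On this scale Lamb2 was the most abundant of the 10 in every group, at 104 ± 43.7 CPM per kilobase among the controls (SD, n = 5), 114 ± 34.3 for D-3 IR (n = 7) and 59.5 ± 32.3 for D+1 IR (n = 7). Hspg2 followed, at 84.5 ± 40.5, 104 ± 35.4 and 49.1 ± 25.8 in the same order. Then came Lamc1 (39.9 ± 15.8 CPM per kilobase in control) and Nid1 (31.3 ± 11.1). Lama5 (18.1 ± 10.7 CPM per kilobase in control), Lama4 (10.7 ± 2.48), Lamb1 (8.12 ± 3.31), Nid2 (5.75 ± 1.11) and Lama2 (3.28 ± 1.31) were lower, and Lama3 was near the bottom of the range at 0.283 ± 0.147. The order was the same in control and D-3 IR. In D+1 IR Lamb1 (12.6 ± 2.76) and Lama4 (10.8 ± 2.09) stood above Lama5 (10.5 ± 6.76) in the mean.

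Several neighbours in this order were closer than their spread. Lamb2 exceeded Hspg2 in all 5 control libraries but in 5 of 7 D-3 IR and 6 of 7 D+1 IR libraries, and Lamc1 exceeded Nid1 in 3 of 5, 5 of 7 and 4 of 7. Lama4 exceeded Lamb1 in 2 of 5 control libraries and in 5 of 7 of D-3 IR. Other steps were held by each library: Hspg2 exceeded Lamc1, and Lama2 exceeded Lama3, in all 5, all 7 and all 7. Lama3 was counted 29 to 345 times per library, and the other 9 genes at least 292 times, so counting error matters for Lama3 only.

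**Figure D1:**
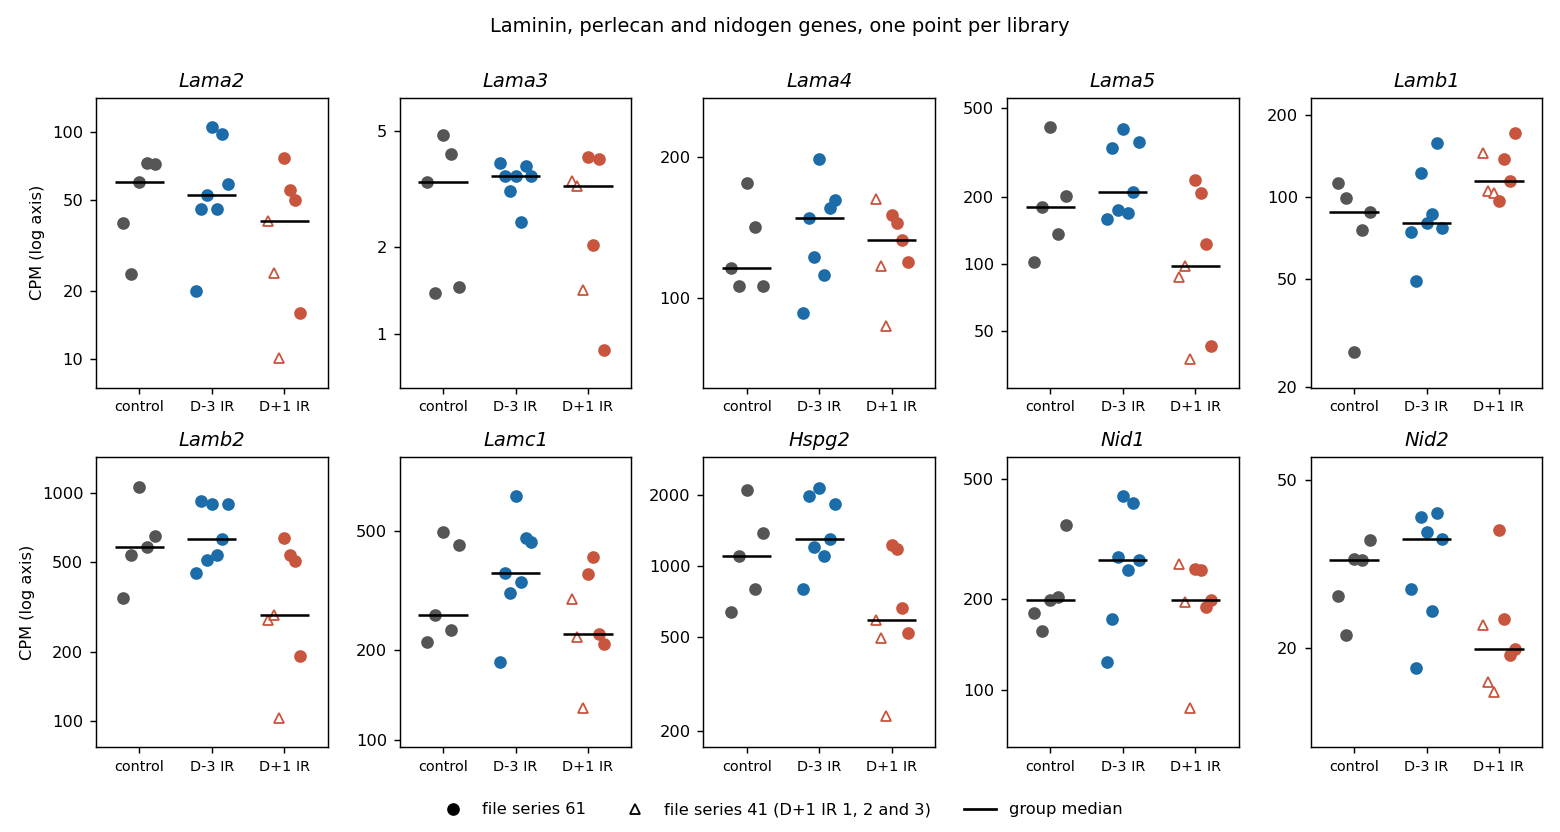
CPM (log axis) of the 10 genes in each of the 19 libraries, by group, with the group median as a bar and open triangles for the D+1 IR libraries 1, 2 and 3. The groups overlapped for every gene, and the D+1 IR libraries 3 and 20 were the lowest of all 19 for Lama5, Lamb2 and Lama2.

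Of the α chains, Lama5, which encodes the α5 chain of endothelial and smooth muscle basement membranes, had the largest difference between the irradiated groups. In the control libraries 4, 5, 6, 8 and 9 it had 102, 180, 412, 136 and 203 CPM. In D-3 IR it ranged from 159 to 402 CPM with a median of 210 CPM, and in D+1 IR from 37.8 to 237 CPM with a median of 98.5. All 7 D-3 IR libraries lay above the D+1 IR median, and 5 of the 7 D+1 IR libraries lay below all of D-3 IR. The log2 fold change of D-3 IR relative to D+1 IR was 1.11 (standard error 0.41), a fold of 2.15, with an adjusted p of 0.409 by the quasi-likelihood F-test of edgeR over all 17617 genes. Relative to control it was 0.31 (standard error 0.45, adjusted p = 1) in D-3 IR and -0.79 (0.44, adjusted p = 0.644) in D+1 IR. The difference from control in D+1 IR ran from -1.05 to -0.38 as single libraries were left out, the latter without control 6.

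Lama4, the other vascular α chain, had little spread between groups. The control libraries had 116, 106, 176, 142 and 106 CPM, D-3 IR 92.8 to 198 CPM (median 148) and D+1 IR 87.1 to 163 CPM (median 133). Its log2 fold changes were 0.13 for D-3 IR and 0.01 for D+1 IR relative to control, and 0.11 between the irradiated groups, each with a standard error of 0.18 to 0.19. Lama2, the α2 chain of merosin, had 39.8, 23.7, 60.04, 72.7 and 72.0 CPM in control, 19.9 to 105 CPM in D-3 IR (median 52.6) and 10.1 to 77.2 CPM in D+1 IR (median 40.5). Its widest relative spread within a group was in D+1 IR, where the highest library was 7.65 times the lowest. Lama2 gave 0.64 (standard error 0.42, adjusted p = 0.533) for D-3 IR relative to D+1 IR. Lama3 had 3.35, 1.38, 4.84, 4.19 and 1.46 CPM in control, 2.44 to 3.91 in D-3 IR and 0.882 to 4.08 in D+1 IR, and its log2 fold changes lay between -0.16 and 0.32.

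The β chains differed with opposite sign in both comparisons of D+1 IR. Lamb2, the β2 chain, had 346, 533, 1065, 581 and 651 CPM in the control libraries, 445 to 927 CPM in D-3 IR (median 631) and 103 to 632 CPM in D+1 IR (median 290). Each D-3 IR library was above the D+1 IR median, 1 of 7 D+1 IR libraries was above the control median, and 4 of 7 D+1 IR libraries lay below all of D-3 IR. The log2 fold change was 0.93 (standard error 0.35, adjusted p = 0.409) for D-3 IR relative to D+1 IR and -0.81 (0.37, adjusted p = 0.644) for D+1 IR relative to control. D-3 IR relative to control gave 0.12 (0.38), which turned to -0.03 without control 4.

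Lamb1, the β1 chain that is widespread in embryonic and adult basement membranes, was the only one of the 10 whose mean CPM in D+1 IR exceeded that of D-3 IR. Control had 112, 99.2, 27.0, 75.7 and 88.4 CPM, D-3 IR 49.3 to 158 CPM (median 80.0) and D+1 IR 96.6 to 172 CPM (median 115). All 7 D+1 IR libraries exceeded the control median, and 4 exceeded every control library. The log2 fold change was 0.63 (standard error 0.30, adjusted p = 0.644) for D+1 IR relative to control and -0.43 (0.27, adjusted p = 0.515) for D-3 IR relative to D+1 IR, while D-3 IR relative to control gave 0.20. The lowest Lamb1 values of all, 27.0 CPM in control 6 and 49.3 CPM in D-3 IR 11, were in libraries with high Lama5 (412 and 331 CPM) and high Lamb2 (1065 and 927 CPM).

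Lamc1 encodes the γ1 chain, the partner in most laminin trimers. It had 213, 262, 494, 233 and 446 CPM in control, 182 to 651 CPM in D-3 IR (median 360) and 128 to 408 CPM in D+1 IR (median 226). In D-3 IR, 6 of 7 libraries were above the D+1 IR median. The log2 fold change of D-3 IR relative to D+1 IR was 0.58 (standard error 0.29, adjusted p = 0.445). Relative to control the values were 0.26 (0.32) for D-3 IR and -0.32 (0.32) for D+1 IR.

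Hspg2, the core protein of perlecan, had the smallest p of the 10. Control had 641, 1107, 2110, 801 and 1382 CPM, D-3 IR 803 to 2148 CPM (median 1303) and D+1 IR 230 to 1231 CPM (median 593). All 7 D-3 IR libraries were above the D+1 IR median, 4 of them above every D+1 IR library, and 5 of 7 D+1 IR libraries were below all of D-3 IR. The log2 fold change of D-3 IR relative to D+1 IR was 1.08 (standard error 0.35, a fold of 2.11, adjusted p = 0.409). D+1 IR relative to control gave -0.78 (0.38, adjusted p = 0.644), and D-3 IR relative to control 0.30 (0.39).

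The nidogens, the short linkers between laminin and collagen IV, had smaller differences between the irradiated groups than Lama5, Lamb2 and Hspg2. Nid1 had 179, 156, 199, 203 and 351 CPM in control, 124 to 438 CPM in D-3 IR (median 270.0) and 86.9 to 262 CPM in D+1 IR (median 199). Control 9 stood 0.761 of the control range away from the next library, and D+1 IR 3 stood 0.576 of its group's range below the next. For Nid1 the log2 fold changes were 0.35 (standard error 0.31), -0.09 (0.31) and 0.44 (0.28, adjusted p = 0.52) for D-3 IR relative to control, D+1 IR relative to control and D-3 IR relative to D+1 IR. Nid2 had 26.5, 21.5, 32.6, 32.2 and 35.9 CPM in control, 17.9 to 41.8 CPM in D-3 IR (median 36.3) and 15.8 to 37.9 CPM in D+1 IR (median 20.0). Nid2 gave 0.54 (standard error 0.21, adjusted p = 0.417) for D-3 IR relative to D+1 IR and -0.42 (0.23, adjusted p = 0.644) for D+1 IR relative to control. In D+1 IR 17 it was highest of its group, at 37.9 CPM.

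**Figure D2:**
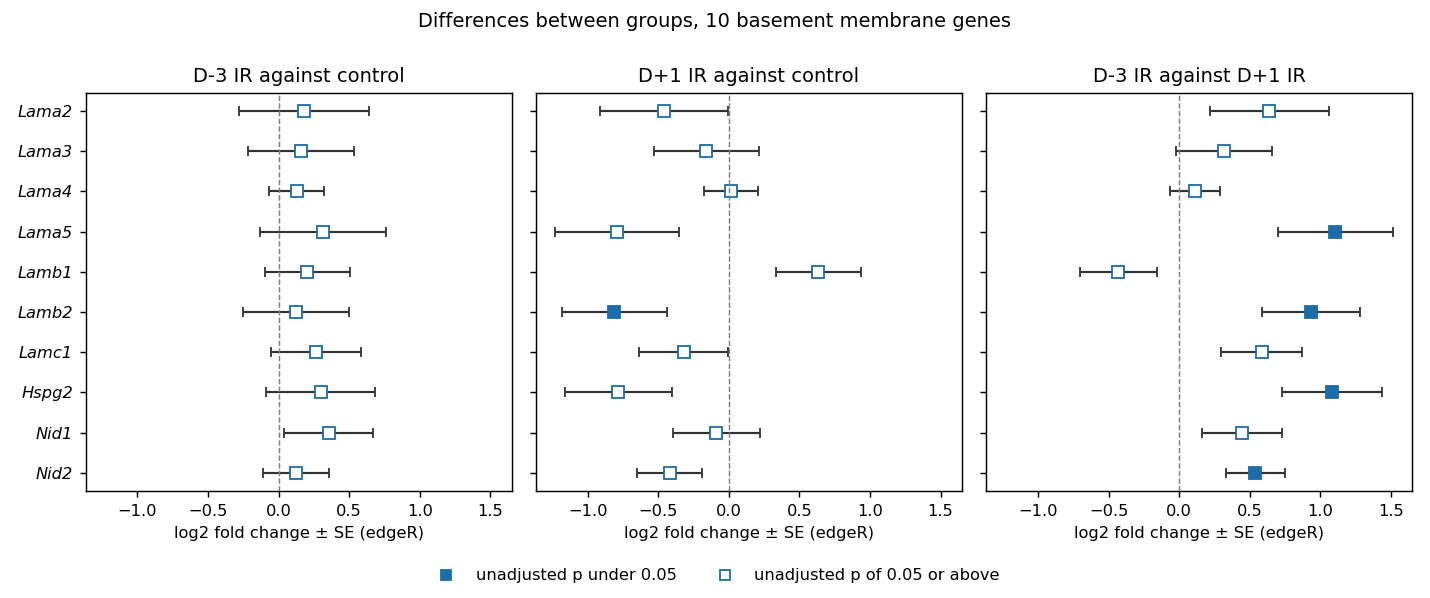
Log2 fold change with its standard error from edgeR for each of the 10 genes, in D-3 IR relative to control, D+1 IR relative to control and D-3 IR relative to D+1 IR, with filled squares for an unadjusted p under 0.05. D-3 IR lay above D+1 IR for 9 of the 10, with Lamb1 on the other side of 0.

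Whether irradiation before or after the start of AngII infusion was followed by different levels was asked with 3 comparisons, each pair of which shares a group. None of the 10 genes passed an adjusted p of 0.05 in any of them with edgeR, and neither did any of the 17617 genes tested (0% in each comparison). In D-3 IR relative to control all 10 values were positive, from 0.12 to 0.35, with a median of 0.19 against -0.03 over all genes. These sizes rested in part on control 6. Without it the median was 0.36, Lama5 was 0.73 and Hspg2 0.60, and with limma voom the median was 0.50, Lama5 0.83 and Hspg2 0.72 (adjusted p = 0.988 for both genes). With edgeR and all libraries none of the 10 had an unadjusted p under 0.05, where 0.5% of all genes did as higher and 0.817% as lower in D-3 IR, 232 genes together. With limma voom 1 of the 10 did, Lama5 (unadjusted p = 0.0481). In D+1 IR relative to control 8 of 10 were negative, with a median of -0.37 against -0.04 over all genes. Of the 10, 1 (Lamb2) had an unadjusted p under 0.05 as lower, beside 4.84% of all genes, and 0 as higher, beside 2.28%, or 1253 genes together. Without D+1 IR 1, 2 and 3 no member had an unadjusted p under 0.05, the median was -0.12, and Lama5, Lamb2 and Hspg2 were at -0.43, -0.44 and -0.42.

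In D-3 IR relative to D+1 IR 9 of 10 were positive, with a median of 0.56 against -0.04 over all genes. Lama5, Lamb2, Hspg2 and Nid2 made 4 of 10 with an unadjusted p under 0.05 as higher in D-3 IR, beside 6.71% of all genes, and 0 of 10 as lower, beside 4.75%, or 2018 genes together. DESeq2 called 0, 2 and 56 genes in the 3 comparisons at an adjusted p of 0.05 and none of the 10. With limma voom and sample quality weights, 0, 0 and 2298 genes passed, 1249 of the last as higher in D-3 IR (7.09%). Among these were Lama5 (log2 fold change 1.51, adjusted p = 0.0228), Lamb2 (1.23, 0.0257) and Hspg2 (1.44, 0.0214). The call of these 3 genes therefore depended on the model.

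It also depended on the 3 D+1 IR libraries of file series 41. Without them, edgeR gave 0.76 for Lama5, 0.58 for Lamb2 and 0.73 for Hspg2 (adjusted p = 0.979 each), none of the 10 had an unadjusted p under 0.05, and the median of the 10 was 0.35. Limma voom called 0 genes without them, with a median of 0.36 and with 4 of the 10 at an unadjusted p under 0.05, 3 of them higher in D-3 IR. Leaving out D+1 IR 20 as well, an alternative chosen after seeing the data, lowered the median to 0.26, with Lama5 at 0.44, Lamb2 at 0.31 and Hspg2 at 0.53. Lamb1 was -0.50 and -0.33 in these fits.

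**Figure D3:**
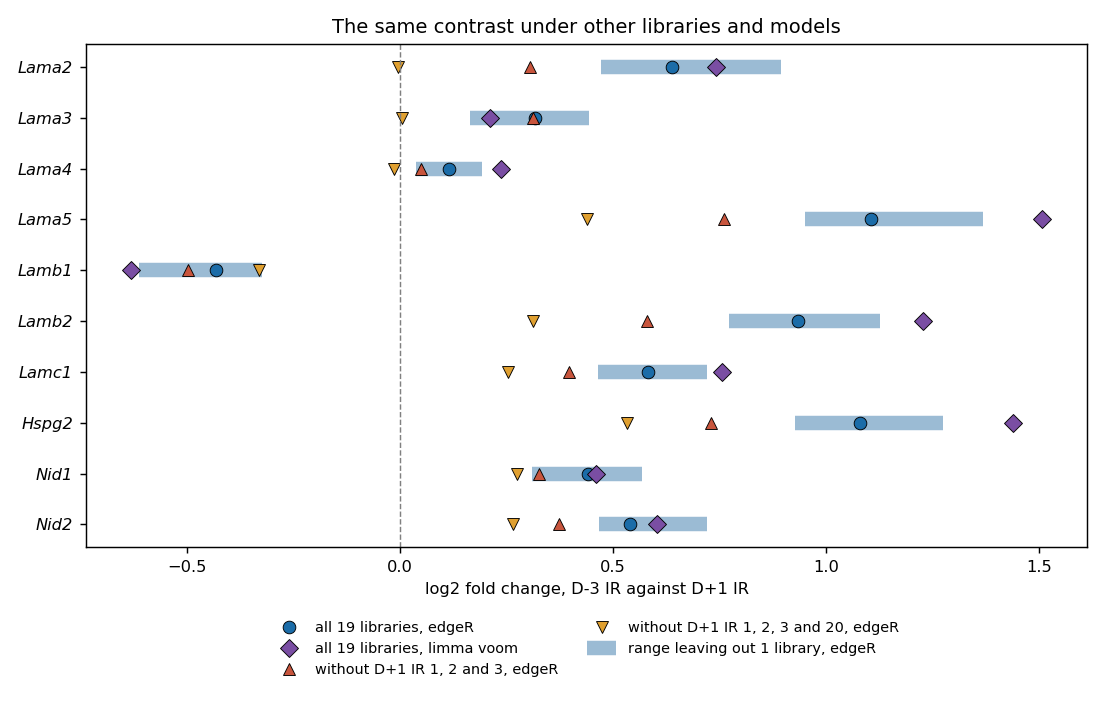
Log2 fold change of D-3 IR relative to D+1 IR for each gene with all 19 libraries (edgeR and limma voom), without the D+1 IR libraries 1, 2 and 3, without these and D+1 IR 20, and as the range over leaving out 1 library at a time. Lama5, Lamb2 and Hspg2 stayed above 0 in each, between 0.31 for Lamb2 and 1.51 for Lama5, and Lama2 reached 0 without the 4 D+1 IR libraries.

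Since chains of one type can replace each other in a trimer, their balance was compared within each library, where the scaling between libraries drops out. The ratios were chosen with earlier results of these data known, which their p-values do not take into account. The ratio of Lama5 to Lama4 counts per kilobase was 0.936, 1.79, 2.48, 1.01 and 2.02 in the control libraries, 1.43 to 2.37 in D-3 IR (median 1.81) and 0.383 to 1.68 in D+1 IR (median 0.894). Lama5 thus exceeded Lama4 in all 7 D-3 IR libraries, and it was the lesser of the pair in 5 of 7 D+1 IR libraries. The mean log2 ratio was 0.89 ± 0.30 for D-3 IR and -0.31 ± 0.83 for D+1 IR (SD, n = 7 each), a difference of 1.196 with p = 0.00524 by an exact two-sided permutation test, adjusted p = 0.0472 over 9 comparisons. This call did not hold in 10 of the 19 fits that left out 1 library (D+1 IR 1, 2, 3, 19 or 20, or D-3 IR 10, 11, 13, 14 or 16). In these the exact p reached 0.0105 and the adjusted p 0.0944 at most. The fits without a control library left both irradiated groups unchanged. Of the fits that changed them, the call held only without D-3 IR 12 or 15, or D+1 IR 17 or 18. Without D+1 IR 1, 2 and 3 the difference was 0.90 (exact permutation p = 0.0545, adjusted p = 0.429).

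The ratio of Lamb2 to Lamb1 was 5.01, 8.76, 64.4, 12.5 and 12.0 in control, 6.51 to 30.6 in D-3 IR (median 10.1) and 1.62 to 10.7 in D+1 IR (median 4.50). Lamb2 exceeded Lamb1 in every library, and the 64.4 of control 6 stood apart from the other 4. The log2 ratio differed by 1.59 between D-3 IR and D+1 IR (exact permutation p = 0.0117, adjusted p = 0.0524) and by -1.70 between D+1 IR and control (exact permutation p = 0.0328, adjusted p = 0.0985), neither past the threshold. The first passed in 4 of the 19 fits without 1 library (control 4, D-3 IR 12, D-3 IR 15 or D+1 IR 17). Fits without a control left its groups unchanged, so without control 4 only the adjustment over 9 comparisons moved. The second passed in 1 of 19 (without control 4, a difference of -2.05 with exact permutation p = 0.0121, adjusted p = 0.0364). Without D+1 IR 1, 2 and 3 the difference between the irradiated groups was 1.19 (exact permutation p = 0.115). Nid2 stayed at 0.115 to 0.30 of Nid1 in all libraries, and its ratio differed by 0.14 between the irradiated groups (exact permutation p = 0.564).

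**Figure D4:**
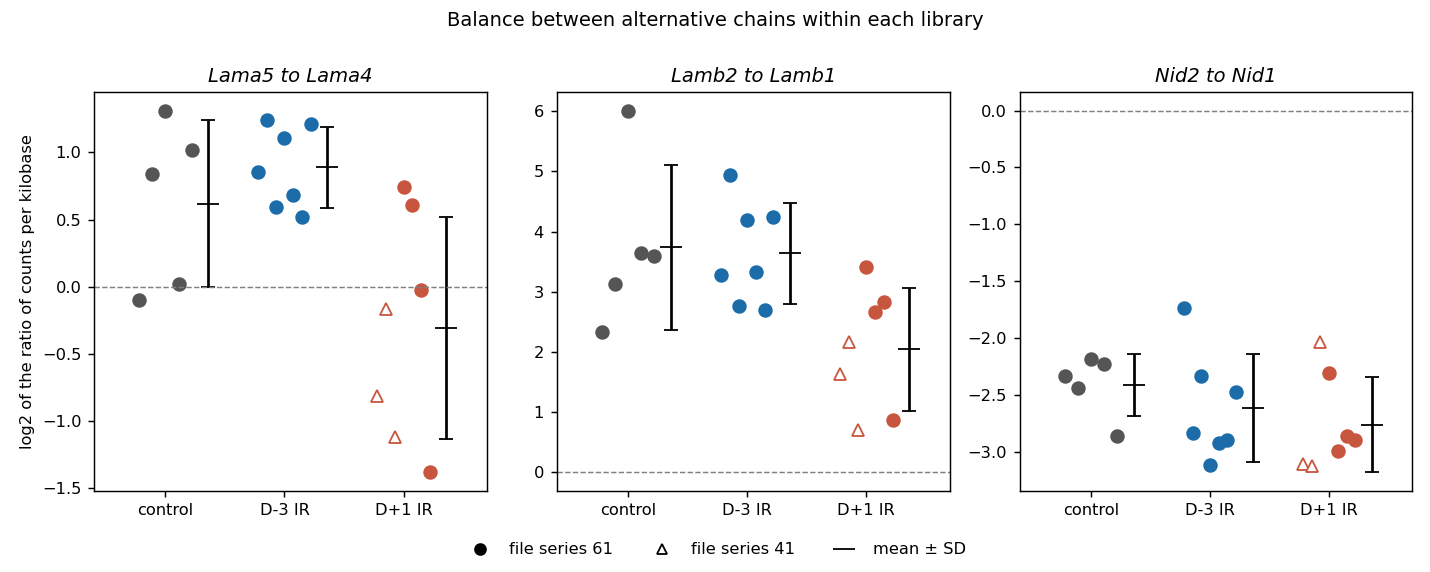
Log2 ratio of counts per kilobase for Lama5 to Lama4, Lamb2 to Lamb1 and Nid2 to Nid1 in each library, by group, with the mean and SD beside the points and open triangles for the D+1 IR libraries 1, 2 and 3. The Lama5 to Lama4 ratio was above 0 in all 7 D-3 IR libraries and reached -1.38 in D+1 IR 20.

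As shares of all α chain counts per length, Lama5 made up 53.5 ± 11.0% in the controls, 58.1 ± 6.06% in the D-3 IR group and 40.2 ± 11.5% in D+1 IR, and Lama4 34.9 ± 8.02%, 31.4 ± 3.44% and 49.5 ± 13.4% (SD). Lamb2 made up 91.1 ± 5.59%, 91.5 ± 4.06% and 78.0 ± 11.8% of the β chains. The epithelial chain Lamb3 was minor, at 0.424 ± 0.498% of β chain counts over the 19 libraries. Lamc1 carried 87.3 ± 5.03%, 88.5 ± 2.83% and 89.6 ± 5.51% of the γ chains in the 3 groups, and Lamc3 9.69 ± 4.50% over all libraries. Lama1, the early embryonic α chain, had 0 to 14 counts per library and did not pass the filter.

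Across the 19 libraries Lama5, Lamb2 and Hspg2 moved almost as a unit. Over 45 pairs of the 10 genes, the largest Pearson r of log2 CPM was 0.97 for Lama5 and Lamb2 (Spearman rho 0.95), followed by 0.96 for Lama5 and Hspg2 (rho 0.97) and 0.96 for Lamb2 and Hspg2 (rho 0.95). Each had a permutation p of 1e-05, the smallest that 100000 permutations can give, and adjusted p-values of 6.43e-05 and 9e-05 for r and rho. Without the 2 libraries farthest from the median of the first gene, D+1 IR 3 and 20, r was 0.95, 0.97 and 0.94, and without D+1 IR 1, 2 and 3 it was 0.97, 0.95 and 0.91. Within D-3 IR r was 0.97, 0.95 and 0.97, and within D+1 IR 0.95, 0.91 and 0.94 (n = 7 each), so the relation was present inside both irradiated groups. Control, with 5 libraries, is too small for its own value.

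Other pairs were looser. Lama2 and Nid1 had r = 0.83 (rho 0.77, permutation p = 1e-05 and 0.00022, 0.81 without D+1 IR 3 and 20), with 0.96 within D-3 IR and 0.79 within D+1 IR. Lama2 was as close to Lamc1 (r = 0.83, rho 0.82) and to Lamb2 (r = 0.80, rho 0.77), and within D+1 IR it was closer to Lamb2 (0.96), Lama5 (0.94) and Hspg2 (0.92) than to Nid1, while within D-3 IR these values were 0.57, 0.55 and 0.67. Lamc1 was at r = 0.89 with Hspg2 (rho 0.90, permutation p = 2e-05 and 1e-05, 0.83 without D+1 IR 3 and D-3 IR 13) and 0.83 with Nid1 (rho 0.71, permutation p = 1e-05 and 0.00106, 0.70 without D+1 IR 3 and D-3 IR 13). Lamb1 was negatively related to Lama5 (r = -0.59, rho = -0.51, permutation p = 0.00771 and 0.0257, adjusted p = 0.0133 and 0.0413), at -0.61 without D+1 IR 3 and 20 but only -0.45 within D-3 IR and -0.31 within D+1 IR. These pairs of Lama2, Lamc1 and Nid1 had adjusted p-values of 0.00318 or less for r and rho.

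**Figure D5:**
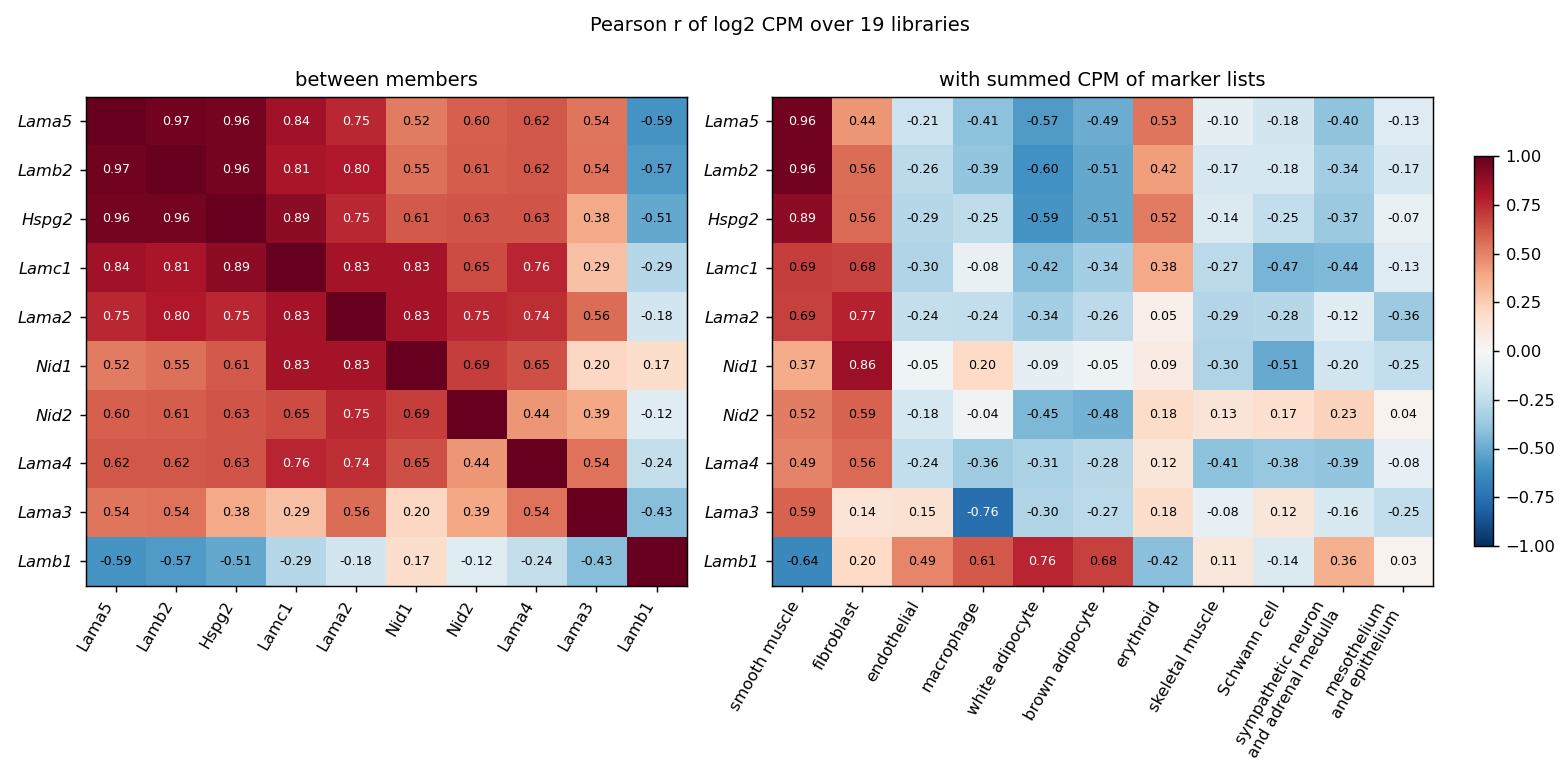
Pearson r of log2 CPM over the 19 libraries, between the 10 genes (left) and between each gene and marker lists of cell types (right). A list was taken as the mean log2 CPM of its tested genes, not as the summed CPM that the heading of the right panel names. Lama5, Lamb2 and Hspg2 form a block with each other and with smooth muscle (0.89 to 0.96), Nid1 and Lama2 have their highest list value with fibroblast (0.86 and 0.77), and Lamb1 has its highest with white adipocyte (0.76).

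Marker genes of cell types moved with these levels. The aorta was recognisable in each library by its smooth muscle markers: all 10 (Acta2, Myh11, Tagln and others) were detected, with a summed level of 5687 to 29930 CPM in control, 9860 to 25320 CPM in D-3 IR and 1430 to 16850 CPM in D+1 IR. Within D+1 IR this level was 1430 to 7027 CPM in libraries 1, 2 and 3 and 2170 to 16850 CPM in 17 to 20. In D-3 IR relative to D+1 IR all 10 markers had positive values, with 1.14 as their median. Of these, 8 had an unadjusted p under 0.05 as higher, beside 6.71% of all genes, and none passed an adjusted p of 0.05. Relations to a list were taken with the mean log2 CPM of its tested genes, not with the summed level. Lama5 followed this mean for smooth muscle with r = 0.96 (rho 0.91), Lamb2 with 0.96 (rho 0.88) and Hspg2 with 0.89 (rho 0.85). The permutation p-values were 1e-05 except 3e-05 for the rho of Hspg2. Without the 2 farthest libraries r was 0.91, 0.94 and 0.85. Within D-3 IR r was 0.89, 0.90 and 0.80, and within D+1 IR 0.96, 0.95 and 0.83. All adjusted p-values over 110 relations were 0.000825 or less. The part of smooth muscle content in the differences between groups was not tested.

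Nid1 followed the fibroblast markers instead, with r = 0.86 (rho 0.83, permutation p = 1e-05 and 3e-05, adjusted p = 0.000275 and 0.000825), 0.79 without D+1 IR 3 and D-3 IR 13, 0.93 within D-3 IR and 0.95 within D+1 IR. Its r with smooth muscle was 0.37. The fibroblast list (10 of 10 detected) had 12870 to 33510 CPM in control, 8108 to 35830 in D-3 IR and 1735 to 36660 in D+1 IR, and its median difference between the irradiated groups was 0.07 (log2). Lamb1 followed the white adipocyte markers with r = 0.76 (rho 0.65, permutation p = 0.00116 and 0.0036, adjusted p = 0.0141 and 0.036), with 0.46 without control 6 and D-3 IR 11, 0.78 without D+1 IR 1, 2 and 3, 0.55 within D-3 IR and 0.02 within D+1 IR, so the size of r rests in part on those libraries. It was also related to the brown adipocyte markers (r = 0.68, rho 0.65, adjusted permutation p = 0.0141 and 0.036). That r was 0.58 within D-3 IR and -0.10 within D+1 IR. With the macrophage markers Lamb1 had r = 0.61 and rho 0.48 (adjusted permutation p = 0.0451 and 0.159). This r was 0.33 without control 6 and D-3 IR 11, 0.55 within D-3 IR and 0.89 within D+1 IR. Lamb1 ran against the smooth muscle markers (r = -0.64, rho -0.71, permutation p = 0.00451 and 0.00101, adjusted p = 0.0382 and 0.0185). This r was -0.56 without control 6 and D-3 IR 11, -0.72 without D+1 IR 1, 2 and 3, -0.74 within D-3 IR and -0.42 within D+1 IR. The white adipocyte list (9 of 9) had 794.8 CPM in control 6, the lowest of all, and up to 14510 CPM in control. In D-3 IR it had 4646 to 11840 CPM. In D+1 IR it had 17470 to 24730 CPM in libraries 1, 2 and 3, above every other library. D+1 IR 17 to 20 had 3996 to 13990 CPM, within the control range. All 9 genes had negative values in D-3 IR relative to D+1 IR (median -0.78), none with an unadjusted p under 0.05.

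Other lists also differed in D-3 IR relative to D+1 IR. All 7 erythroid genes were positive with an unadjusted p under 0.05 (median 2.89), beside 6.71% of all genes as higher. Their sum ran from 88.3 to 6994 CPM in control, 621 to 10450 in D-3 IR and 249 to 1604 in D+1 IR. All 9 skeletal muscle genes tested were positive (median 3.28), 5 with an unadjusted p under 0.05 as higher, beside 6.71% of all genes. Their sums in the same order were 8.03 to 718, 14.5 to 7395 and 6.80 to 774 CPM, and Tnnc2 was not tested. The medians of these sums lay far closer together, at 36.5, 61.1 and 36.3 CPM, so the wide range within D-3 IR weighs on these fold changes. All 7 macrophage genes were negative (median -0.52, none with p under 0.05), with sums of 230 to 2059, 302 to 1473 and 447 to 3096 CPM. Lama3 had r = -0.76 with the macrophage markers (rho -0.65, permutation p = 0.00019 and 0.00354, adjusted p = 0.00385 and 0.036), at -0.67 without D+1 IR 20 and control 5. This r was -0.33 within D-3 IR and -0.79 within D+1 IR. The endothelial list, whose cells also make laminin α4 and α5, had 560.1 to 1138 CPM in control, 879 to 1656 in D-3 IR and 832 to 1911 in D+1 IR, a median log2 fold change of -0.03, and r between -0.30 and 0.15 with all members but Lamb1 (0.49). Without D+1 IR 3 and 20 this r was -0.68 for Lamb2, -0.55 for Lama5 and -0.55 for Lama2. Within D-3 IR it was -0.72 for Lamb2, -0.63 for Lama5 and -0.66 for Hspg2, and within D+1 IR 0.08, 0.09 and -0.11. Schwann cell, brown adipocyte, sympathetic and mesothelial lists had medians of 0.06, -1.08, -1.36 and 0.21. No gene of these lists was at 0 in every library. The part of any of these tissues in the laminin values was not tested.

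Other genes of the basement membrane mostly had values of the same sign as the 10 genes. Of 28 other basement membrane genes 27 were tested, and in D-3 IR relative to D+1 IR 25 were positive, with a median of 0.73 and 14 of 27 at an unadjusted p under 0.05 as higher, beside the 6.71% of all genes. Agrn, the heparan sulfate proteoglycan agrin, had the smallest p at 0.73 (standard error 0.22, adjusted p = 0.409), from a median of 73.2 CPM in D+1 IR and 118 CPM in D-3 IR. The collagen IV chains Col4a1 (0.95, standard error 0.33) and Col4a2 (1.01, 0.34), which form the second network of the membrane, and Col15a1 (1.33, 0.45), a collagen of the outer face of basement membranes, came next. In D+1 IR relative to control 23 of 27 were negative with a median of -0.60, led by Sparc (-0.93, standard error 0.40, adjusted p = 0.644), a collagen-binding glycoprotein, and Col18a1 (-1.32, 0.56, adjusted p = 0.644), followed by Col4a1 (-0.73) and Col4a2 (-0.76). In D-3 IR relative to control 24 of 27 were positive (median 0.22) and none had p under 0.05. Papln (1.09, standard error 0.59), Egflam (0.54, 0.31), Agrn (0.30, 0.24) and Frem2 (0.55, 0.47) had the smallest p there.

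The 11 laminin receptors were all positive in D-3 IR relative to D+1 IR, with a median of 0.30 and 5 of 11 at an unadjusted p under 0.05, beside 6.71% of all genes as higher. Itga3, the integrin α3 subunit, had 0.93 (standard error 0.33), Mcam, an adhesion molecule that binds laminin α4, 0.90 (0.33), Bcam, the Lutheran receptor of laminin α5, 0.66 (0.25), and Itgb1, the common integrin β1 subunit, 0.80 (0.35), all with an adjusted p of 0.409 to 0.421. Relative to control in D+1 IR, 10 of 11 were negative (median -0.60) and 3 had p under 0.05, beside 4.84% of all genes as lower: Bcam (-0.75, standard error 0.27), Itga3 (-0.98, 0.36) and Mcam (-0.86, 0.35), each with an adjusted p of 0.644. Itga7 was next at -0.63 (0.32). D-3 IR relative to control gave 7 of 11 positive and a median of 0.04, and the smallest p was that of Itga2 (-0.56, standard error 0.44), with Itga6 (0.28), Adgrg6 (-0.21) and Dag1, dystroglycan itself (0.15), behind it.

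Dystroglycan binds laminin through sugar chains built by a set of enzymes. Of 12 such genes 11 were tested, and 7 were positive in D-3 IR relative to D+1 IR with a median of 0.10. Of the 11, 2 had an unadjusted p under 0.05 as higher, beside 6.71% of all genes. B3galnt2, among these, had 0.89 (standard error 0.35, adjusted p = 0.417), and Pomt2, not among them, had 0.27. In D+1 IR relative to control 8 of 11 were negative (median -0.25). Pomk, with -0.39 (standard error 0.15), was the only 1 with an unadjusted p under 0.05, beside 4.84% of all genes as lower. B3galnt2 had -0.76. In D-3 IR relative to control, 6 of 11 were positive (median 0.02), with Pomk (-0.23), Pomgnt2 (-0.38) and Rxylt1 (-0.15) among those with the smallest p.

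The genes whose log2 CPM followed each member most closely over the 19 libraries are given as a description. For Lamb2 they were Ltbp1 and Npnt, both matrix proteins, with r of 0.99 each, and for Lama5 the proteoglycan Cspg4 (0.98) and 2900026A02Rik (0.97). Hspg2 was nearest to Creb3l2 and Fat1 (0.98 each). Lama2 was nearest to Boc (0.96) and Abi3bp (0.94), Nid1 to the protease Adamts12 (0.95) and Ptgfrn (0.94), and Lamc1 to Heatr5a and Sel1l (0.94 each). Lower values were found for Lama4 with Tmtc4 (0.91) and Klf12 (0.90), for Lamb1 with Apln, the peptide apelin, (0.90) and the cholesterol transporter Abca1 (0.89), for Lama3 with Lrrn1 and Zbtb10 (0.89 each), and for Nid2 with Tcf21 (0.86) and Stx2 (0.83). No gene was nearest to more than 1 member.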

How the data were processed

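The data were 19 poly(A) RNA-seq libraries of abdominal aorta (TruSeq Stranded mRNA kit, NovaSeq). Per the labels and the study's methods, the authors checked reads with FastQC, aligned them to Ensembl GRCm38 with STAR 2.7.9a and deposited its raw read counts per gene, unstranded and for each strand, as 1 file per library with a joined table. All 773262 values of the joined table equalled the unstranded counts, which were used. Fold changes were computed here. The depth, 25839001 to 97083681 counts in genes, limits precision only for Lama3.

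Groups came from the sample titles. The labels do not name the animal of each library. The study's methods give 5 to 7 mice per group for the RNA-seq data, and the groups here hold 5, 7 and 7 libraries. Each library was therefore taken as 1 mouse, and p-values measure the spread between these libraries. Counts were filtered by group (filterByExpr, 17617 genes kept), scaled with TMM and fitted in 1 model of the 3 groups without intercept (edgeR 4.0.16, legacy quasi-likelihood F-test, two-sided, Benjamini-Hochberg adjustment over all genes, threshold 0.05, common biological coefficient of variation 0.591). Log2 CPM used a prior count of 2. Lengths were exon unions of GENCODE M21 on GRCm38, an earlier release than the gene versions in the files. Chain ratios were tested by exact two-sided permutation with adjustment over 9. Correlations used 100000 permutations. Alternatives were DESeq2 1.42.0, limma 3.58.1 voom with sample quality weights, the newer quasi-likelihood method, RLE factors, no filter, second-strand counts, 2 groups only and left-out libraries. The edgeR fit was tested on simulated data.

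The 10 genes, the lists and the ratios were chosen with earlier results of these data known. Text names all 10, up to 4 genes per pathway list by smallest p (some are not reported here), and the 2 most correlated genes of each member.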

Additional observations from a re-analysis of the deposited data

Results flagged for a closer look

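In 39 sets of values (the 10 genes and 3 chain ratios in the 3 groups) the most extreme library was compared with the next by the gap over the group's range, which chance alone would flag in about 1 of 20 sets. Such a gap was found in 3 sets, all in nidogens. Nid1 in control 9 was 350.9 CPM, with a gap of 0.761 of the range to the other 4 control libraries, and in D+1 IR 3 it was 86.86 CPM, with a gap of 0.576 of the range. Nid2 in D+1 IR 17 was 37.92 CPM, with a gap of 0.654. D+1 IR 3 also had the lowest fibroblast marker sum of all libraries (1735 CPM). Neither value's cause was tested. Without control 9 the log2 fold change of Nid1 relative to control was 0.59 for D-3 IR and 0.15 for D+1 IR, the latter changed in sign.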

How the results depend on the processing

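No paired analysis was possible because the groups share no library number. No gene was called by edgeR under any of its settings. DESeq2 called 2 genes in D+1 IR relative to control and 56 in D-3 IR relative to D+1 IR, and limma voom with sample quality weights called 2298 in the latter, 3 of them members. Of 290 log2 fold changes of members under other settings in each comparison, 7 changed sign in D-3 IR relative to control, 19 in D+1 IR relative to control and 2 in D-3 IR relative to D+1 IR. Most of those in D+1 IR relative to control came with limma voom or without 1 or more D+1 IR libraries, and the cause was not tested.

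With limma voom the value of Lamb1 in D-3 IR relative to control was -0.046, and Lama3 in D+1 IR relative to control was 0.31. Without D+1 IR 1, 2 and 3, Nid1 in D+1 IR relative to control was 0.046 with edgeR. With limma voom without these libraries, an alternative added after seeing the data, Lamb1 in D-3 IR relative to control was -0.030, and in D+1 IR relative to control Lama2 was 0.23, Lama3 0.12, Lamc1 0.24, Nid1 0.23 and the median of the members 0.18. Without these and D+1 IR 20, also added later, D+1 IR relative to control gave 0.19 for Lama2, 0.15 for Lama3, 0.010 for Lamc1, 0.080 for Nid1 and a median of 0.045, and D-3 IR relative to D+1 IR gave -0.0038 for Lama2 and -0.014 for Lama4. The Lama5 to Lama4 ratio without D+1 IR 1, 2 and 3 differed by 0.90 and did not pass.

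Leaving out 1 library at a time, the values that changed sign ranged in D-3 IR relative to control from -0.0068 to 0.33 for Lama2, -0.027 to 0.39 for Lama3, -0.018 to 0.35 for Lamb1 and -0.032 to 0.39 for Lamb2, and in D+1 IR relative to control from -0.34 to 0.072 for Lama3, -0.049 to 0.15 for Lama4 and -0.19 to 0.15 for Nid1. The Lama5 to Lama4 ratio in D-3 IR relative to D+1 IR ranged from 1.02 to 1.37, Lamb2 to Lamb1 in D-3 IR relative to control from -0.46 to 0.46, in D+1 IR relative to control from -2.05 to -1.13, and in D-3 IR relative to D+1 IR from 1.37 to 1.82, and Nid2 to Nid1 in D-3 IR relative to D+1 IR from -0.0028 to 0.26. The wide spread between libraries of a group limits each comparison.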
